A study of Homo sapiens with 59 samples.

Results

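HepG2 cells, an established human liver cancer line, were compared after 24 h with a water extract of Scutellariae Radix at 500 and 100 ug/mL. The comparison takes the 6 libraries whose titles name this extract with its High or its Medium dose, 3 of each, out of 59 libraries in the series, and reads all 16641 genes tested. Scutellariae Radix is the dried root of Scutellaria baicalensis, a medicinal plant rich in flavones. The series gave HepG2 cells 6 plant extracts at 3 doses each, a vehicle and wortmannin, an inhibitor of phosphoinositide 3-kinases. Messenger RNA was sequenced.

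The other groups used here hold 3 libraries each. They are the vehicle, the same Scutellariae Radix extract at 20 ug/mL, Zingiberis Rhizoma Recens (fresh ginger) water extract at 500 and at 100 ug/mL, and Coptidis Rhizoma water extract at 210 and at 42 ug/mL. The sample labels give the vehicle as 0.1% DMSO and the series text gives 2%, while the DMSO content of the extract groups is not given in the sources used here. All of these cells were unmodified HepG2 from a single repository stock. The labels do not say that replicates were separate cultures, so p-values measure the spread between these libraries, which may be technical. The titles of all Scutellariae Radix libraries begin with the number 3, those of the vehicle with A1, of fresh ginger with 2 and of Coptidis Rhizoma with 4. What these codes stand for is not stated, so in each comparison with the vehicle or with another extract the code and the treatment cannot be told apart, while both doses compared here share the number.

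The 3 libraries at 500 ug/mL held between 23352985 and 23964662 counts and those at 100 ug/mL between 24090698 and 27268246, so the totals did not overlap, and all levels below are CPM, the count relative to the scaled library total. Mitochondrial transcripts took between 10.38 and 11.2% of counts at 500 ug/mL and between 9.843 and 11.25% at 100 ug/mL. All 8 hepatocyte or HepG2 markers were detected. Their summed level was between 34370 and 35490 CPM at 100 ug/mL and between 27080 and 27900 CPM at 500 ug/mL. Each of the 8 was lower at 500 ug/mL, but by unlike amounts. Apolipoprotein B (APOB), the largest part of the sum, read 15540 to 16870 and then 10870 to 11530 CPM. Albumin (ALB) read 8344 to 8595 and then 7965 to 8281 CPM. Of 21 markers of other cell types, PTPRC (leukocytes), COL1A2 (fibroblasts) and NEUROD1 (neurons) had no count in any of the 6 libraries. Others were well detected. ACTA2 (stellate and muscle cells) read 46.28 to 47.61 CPM at 100 ug/mL and 77.64 to 85.18 CPM at 500 ug/mL, and CD68 (macrophages) 38.44 to 42.16 and 44.46 to 46.68 CPM. Markers of the same or other cell types went the other way. CD14 (macrophages) had 141 and then 96 counts in all, and COL1A1 (fibroblasts) 30 and then 15. PECAM1 (endothelium) read 3.922 to 4.505 and then 2.094 to 2.397 CPM. Of 12 markers tested, 3 passed as higher and 5 as lower (24.0% and 24.5% over all genes). The bile duct markers were lower at 500 ug/mL, SOX9 at 198 to 212.2 and then 189 to 192.3 CPM, and EPCAM at 140.9 to 164.8 and then 127.5 to 132.1 CPM. The 21 summed to between 1675 and 1737 CPM at 100 ug/mL and between 2199 and 2385 CPM at 500 ug/mL, and without LYZ, the lysozyme gene, to between 437 and 464.6 CPM and between 450.7 and 463.1 CPM. The part of these shifts in the results below was not tested. CPM is not scaled to gene length, so levels are compared between libraries and not between genes.

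Several control systems bear on the comparison. The aryl hydrocarbon receptor (AhR) is a ligand-activated transcription factor that turns on CYP1A1 and other detoxification genes, and NRF2 turns on glutathione and redox genes. The integrated stress response works through the transcription factor ATF4, p53 acts through the cell cycle inhibitor p21 (CDKN1A), and the kinase ERK drives immediate early genes such as EGR1 and FOS together with phosphatases that feed back on it. Many mitotic promoters hold a CCAAT box, read by NF-Y, and a cell cycle homology region (CHR), read by the MuvB core. In resting cells MuvB is part of the DREAM complex, which represses these genes, and in dividing cells it joins B-MYB and FOXM1 and activates them.

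The promoters shown first are those of mitotic genes, because every member of the mitosis list fell, and of HSPA6 and ASNS. HSPA6 had the largest rise of a heat shock list that was mixed, and ASNS is a member of the ATF4 amino acid response list. The windows are the 250 bases before the RefSeq start of each gene, in build GRCh38.p14, written 5′ to 3′ on the gene's strand. Capitals mark CCAAT or its reverse complement ATTGG and the CHR letters TTTGAA in MKI67, PLK1 and CDCA8, the 3 mitosis members with the largest falls that held both motifs, the paired heat shock element GAANNTTC in HSPA6, and the ATF4 element TGATGNAA in ASNS. MKI67 encodes the proliferation marker Ki-67 and lies on the minus strand, window chr10:128126424-128126673. PLK1 encodes the mitotic kinase Polo-like kinase 1, plus strand, chr16:23678639-23678888. CDCA8 encodes borealin of the chromosomal passenger complex, plus strand, chr1:37692266-37692515. HSPA6 encodes a strictly inducible HSP70, plus strand, chr1:161524290-161524539, and ASNS encodes asparagine synthetase, minus strand, chr7:97872409-97872658.
MKI67: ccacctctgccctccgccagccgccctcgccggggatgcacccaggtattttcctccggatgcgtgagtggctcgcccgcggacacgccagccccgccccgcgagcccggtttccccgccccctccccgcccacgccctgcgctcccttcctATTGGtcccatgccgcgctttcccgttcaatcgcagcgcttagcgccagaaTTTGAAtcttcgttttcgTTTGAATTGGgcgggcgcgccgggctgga
PLK1: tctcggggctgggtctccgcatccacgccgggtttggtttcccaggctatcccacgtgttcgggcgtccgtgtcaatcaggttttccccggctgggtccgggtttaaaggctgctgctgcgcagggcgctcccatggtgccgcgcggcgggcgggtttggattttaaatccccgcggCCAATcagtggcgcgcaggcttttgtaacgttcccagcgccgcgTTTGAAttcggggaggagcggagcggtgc
CDCA8: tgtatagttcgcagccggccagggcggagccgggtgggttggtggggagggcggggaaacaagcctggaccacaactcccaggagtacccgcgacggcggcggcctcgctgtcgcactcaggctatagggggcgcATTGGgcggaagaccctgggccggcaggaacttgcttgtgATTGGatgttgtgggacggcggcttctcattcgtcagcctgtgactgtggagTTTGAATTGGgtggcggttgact
HSPA6: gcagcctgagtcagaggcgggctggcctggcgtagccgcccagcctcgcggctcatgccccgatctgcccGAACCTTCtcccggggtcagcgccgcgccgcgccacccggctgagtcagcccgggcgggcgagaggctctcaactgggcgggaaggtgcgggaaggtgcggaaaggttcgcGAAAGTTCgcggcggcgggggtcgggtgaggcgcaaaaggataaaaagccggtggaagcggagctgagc
ASNS: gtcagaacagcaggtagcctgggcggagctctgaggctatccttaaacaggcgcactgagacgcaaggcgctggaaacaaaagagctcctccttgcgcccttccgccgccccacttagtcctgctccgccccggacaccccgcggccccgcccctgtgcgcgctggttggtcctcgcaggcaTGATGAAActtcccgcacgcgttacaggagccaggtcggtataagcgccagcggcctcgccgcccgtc

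In MKI67 and PLK1 the CHR nearest the start lies 29 bases before it, and in CDCA8 23 bases before it. The last CHR of MKI67 and the CHR of CDCA8 overlap an ATTGG by 1 base. Of 21 mitosis members with a window in the table, 10 (47.62%) held both motifs on either strand, against 3.45% of the 11311 tested genes with a window and 4.85% of all 27305 windows. Among the DNA replication members 61.9% held a CCAAT box and 4.76% a CHR, against 34.93% and 8.63% of tested genes. The paired heat shock element occurred in 8 of 17 heat shock members (47.06%), against 4.21% of tested genes. The ATF4 element occurred in 3 of 22 members of the ATF4 list (13.64%), against 1.49% of tested genes. These are matches of letters and not measured binding.

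Between 100 and 500 ug/mL, 8074 genes passed the test (48.5% of those tested), 3996 higher (24.0%) and 4078 lower (24.5%) at 500 ug/mL. Which direction held more calls depended on the settings, with 4448 higher and 3624 lower under scaling to total counts. The test was edgeR's quasi-likelihood test with Benjamini-Hochberg adjustment over all genes, with a threshold of 0.05 on the adjusted p. Most of these changes were small, with a median size of 0.37 on the log2 scale. Against a fold of 1.5, tested with edgeR's glmTreat, 1101 genes passed (6.62%), 705 higher (4.24%) and 396 lower (2.38%). Large changes were mostly rises: 223 genes rose by more than 2 on the log2 scale and 21 fell by more than 2. Genes with few counts at 100 ug/mL can rise by this much but can hardly fall. Among genes with a mean of at least 1 CPM, 546 higher and 351 lower passed against 1.5-fold. The median over all genes was 0.01. At 9490 genes (57.0%) all 3 libraries of one dose lay beyond all 3 of the other, and where doses are said below not to overlap this is the background. For counts of list members that rose or fell over this step the backgrounds are 24.0% and 24.5%. For members above or below the vehicle at 100 ug/mL they are 7.27% and 7.34%.

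The lower dose step gave far fewer calls. Between 20 and 100 ug/mL, which is also a 5-fold step, 353 genes passed (2.12%), and between the vehicle and 100 ug/mL 2431 passed (14.6%), against 8354 (50.2%) between the vehicle and 500 ug/mL. A contrast of the upper step against the lower step passed for 4767 genes (28.6%), 2197 with the more positive change over the upper step (13.2%) and 2570 with the more negative (15.4%), and this balance turned under scaling to total counts (2506 and 2236). These comparisons share the 100 ug/mL libraries, so their values are set side by side only.

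Most AhR targets were already raised at 100 ug/mL. Of 11 members tested, 7 were higher at 100 ug/mL than in the vehicle (background for higher calls 7.27%) and 5 rose between 20 and 100 ug/mL (background 0.805%). Over the upper step 4 rose and 3 fell (backgrounds 24.0% and 24.5%), with a median log2 change of 0.14. At 500 ug/mL 9 of the 11 were higher than in the vehicle (background 24.7%). The median difference from the vehicle was 1.71 there and 0.79 at 100 ug/mL. CYP1A1, the classical AhR-induced monooxygenase, averaged 12.3 CPM in the vehicle and 288 CPM at 20 ug/mL, read 708, 741 and 765 CPM at 100 ug/mL, and 811, 839 and 794 CPM at 500 ug/mL. The libraries at the 2 doses compared did not overlap, but the log2 difference of 0.14 (SE 0.07, adjusted p = 0.0727 with edgeR's quasi-likelihood test) missed the threshold. It lies close to that threshold, since it passed under 7 alternative settings, with values between 0.13 and 0.17 and adjusted p between 0.00126 and 0.0388. The change over the upper step was smaller than over the lower step by 1.22 (SE 0.11, adjusted p = 1.9e-12).

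Other AhR targets divided. AHRR, the AhR repressor, averaged 0.597 CPM in the vehicle, 4.09 at 100 ug/mL and 4.77 at 500 ug/mL, and ALDH3A1, an aldehyde dehydrogenase, 0.377, 4.06 and 3.29 CPM; neither passed over the upper step. NQO1, a quinone reductase that both AhR and NRF2 induce, averaged 665 CPM in the vehicle, 1148 at 100 and 1188 at 500 ug/mL, with an upper-step log2 difference of 0.05 that missed the threshold. CYP1A2, with no count in the vehicle libraries, fell from 1.08, 1.5 and 1.22 CPM to 0.728, 0.579 and 0.725 CPM (log2 -0.89, SE 0.32). That call was lost without 500 ug/mL replicate 2 (-0.79) or 100 ug/mL replicate 2 (-0.75). CYP1B1 rose from between 0.235 and 0.487 CPM to between 0.744 and 0.931 CPM (log2 1.32). UGT1A6 also passed as higher, on 4 against 29 counts, and its exons are shared with other UGT1A genes, so that value is uncertain. The receptor gene itself, AHR, rose from 38.3, 40.6 and 39.3 CPM to 63.7, 62.2 and 62.95 CPM (log2 0.68, SE 0.06).

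NRF2 targets rose further above 100 ug/mL, but unevenly. Of 25 tested, 21 were already higher at 100 ug/mL than in the vehicle, and over the upper step 17 rose and 3 fell, with a median of 0.36. SLC7A11 and GCLC rose most. SLC7A11, the cystine importer, read 71.5, 81 and 75.8 CPM at 100 ug/mL and 268, 269.8 and 291 CPM at 500 ug/mL, with no overlap (log2 1.86, SE 0.07). GCLC, the catalytic subunit of the enzyme limiting glutathione synthesis, read 136, 139.9 and 136 CPM and then 281, 279.9 and 288 CPM (log2 1.04, SE 0.03). Its partner subunit GCLM rose by 0.56, sulfiredoxin (SRXN1) by 0.85, thioredoxin reductase (TXNRD1) by 0.84 and the autophagy receptor SQSTM1 by 0.83. AKR1C1 rose by 0.98 while AKR1C2 did not pass (-0.03), and reads of these close paralogs may be split between them. Glutathione reductase (GSR, -0.22), PIR (-0.20) and epoxide hydrolase (EPHX1, -0.13) fell. The gene for NRF2 itself, NFE2L2, fell from between 273 and 278 CPM to between 183 and 195 CPM (log2 -0.53).

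**Figure D1:**
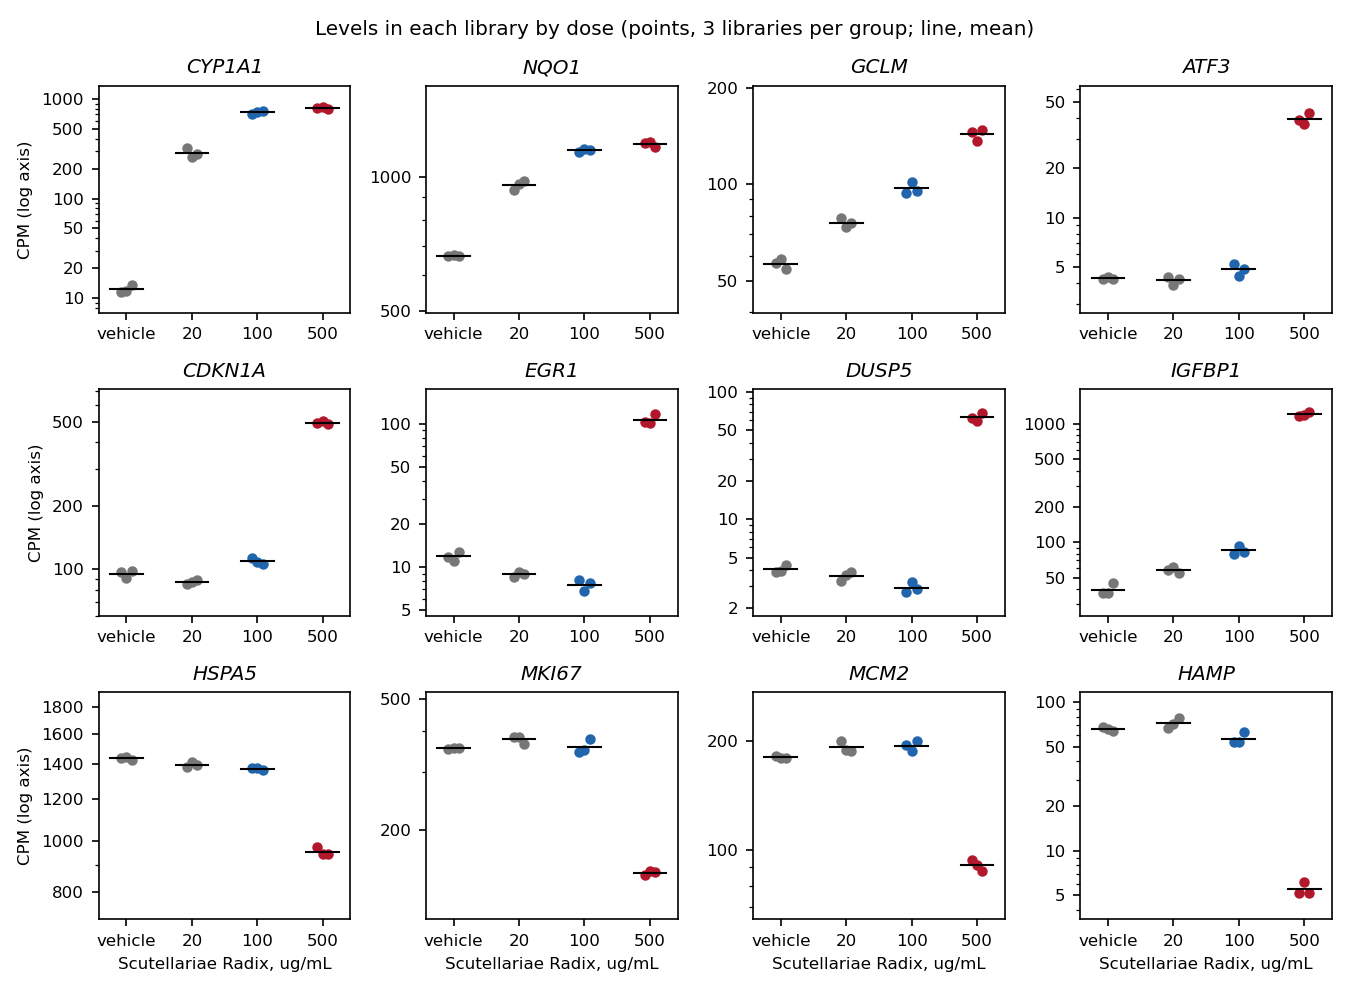
Levels of 12 genes in CPM (log axis) in each of the 3 libraries of the vehicle and of Scutellariae Radix at 20, 100 and 500 ug/mL; points are libraries and lines are group means. CYP1A1 and NQO1 had risen by 100 ug/mL, ATF3, CDKN1A, EGR1, DUSP5 and IGFBP1 were highest at 500 ug/mL, and MKI67, MCM2, HSPA5 and HAMP were lowest there.

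Genes of the ATF4 amino acid response rose together: 22 of 26 rose, 2 fell and the median was 0.88. At 100 ug/mL 10 of these 26 were above the vehicle, with a median of 0.15. ATF3, a stress-induced transcription factor, averaged 4.3 CPM in the vehicle and 4.19 CPM at 20 ug/mL, read 5.25, 4.46 and 4.86 CPM at 100 ug/mL and 39.1, 36.9 and 42.8 CPM at 500 ug/mL. Its level at 100 ug/mL was not called different from the vehicle, and every library at 500 ug/mL lay above every other of the 4 groups (log2 3.02, SE 0.08, adjusted p = 3.9e-34, edgeR). PPP1R15A (GADD34), which recruits the phosphatase that ends eIF2 phosphorylation, went from 19.6, 19.2 and 20.7 CPM to 149, 136 and 149 CPM (log2 2.87).

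GDF15, a secreted stress cytokine, was already above the vehicle (141 CPM) at 100 ug/mL and read 217, 207 and 214 CPM there, then 1085, 1074 and 1058 CPM at 500 ug/mL (log2 2.33, SE 0.06). ASNS, whose promoter is printed above, went from 48.6, 52.2 and 47 CPM to 135, 139 and 139 CPM (log2 1.48). DDIT3 (CHOP), a transcription factor tied to cell death under prolonged stress, rose by 1.15, TRIB3 by 0.98, SESN2 by 1.85 and ATF4 itself by 0.42. CHAC1, a glutathione-degrading enzyme, rested on 20 counts against 3, a ratio of 7.05 with a 95% interval of 2.09 to 37.0 that covers counting error only. The serine synthesis genes PHGDH (-0.13) and PSPH (-0.14) fell slightly, and PSAT1 rose by 0.15.

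The chaperones of the endoplasmic reticulum, the usual targets of the ATF6 and XBP1 arms of the unfolded protein response, moved the other way. Of 19 tested, 14 fell and 2 rose (median -0.22). HSPA5 (BiP), the main chaperone of that compartment, read 1375, 1379.6 and 1362 CPM at 100 ug/mL and 973, 941 and 942 CPM at 500 ug/mL (log2 -0.53, SE 0.03). The groups did not overlap. Calreticulin (CALR) fell by 0.62 on the log2 scale, PDIA4 by 0.66 and CRELD2 by 0.73, and DNAJB9 (0.28) and EDEM1 (0.22) rose.

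Cytosolic heat shock genes were mixed, with 7 of 19 higher and 8 lower. HSPA6 had 1, 4 and 1 counts at 100 ug/mL and read 9.75, 7.94 and 10.1 CPM at 500 ug/mL, from 684 counts in all against 6 (fitted log2 6.82, SE 0.42). HSPA1A rose by 0.51 and HSPA1B by 0.20, but these copies are nearly identical and the split between them is uncertain. The constitutive chaperones HSPA8 (-0.30), HSP90AA1 (-0.37) and HSPE1 (-0.43) fell.

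p53 targets rose almost without exception: 21 of 22 rose and none fell, with a median of 0.80. At 100 ug/mL 2 of the 22 were above the vehicle and 3 below. CDKN1A averaged 95.2 CPM in the vehicle and 87 CPM at 20 ug/mL, read 113, 108 and 105 CPM at 100 ug/mL, and 495, 503 and 490.1 CPM at 500 ug/mL (log2 2.19, SE 0.05, adjusted p = 1.7e-36, edgeR). MDM2, the ubiquitin ligase that p53 induces and that degrades it, read 358, 359 and 337 CPM and then 648, 662 and 628 CPM (log2 0.88). Neither gene's doses overlapped.

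The DNA damage and death members moved with them. GADD45A rose by 1.3, TP53INP1 by 1.28, TP53I3 by 0.99, RRM2B by 0.74 and DDB2 by 0.49. BBC3 (PUMA), a BH3-only killer protein, went from 8.38, 7.51 and 8.04 CPM to 23.1, 22.5 and 22.7 CPM (log2 1.51), and PMAIP1 (NOXA) from between 1.53 and 1.91 CPM to between 5.58 and 6.53 CPM (log2 1.87). BAX, the pore-forming effector, read between 101 and 107 CPM at 100 ug/mL and between 111 and 113 CPM at 500 ug/mL and did not pass (log2 0.10, adjusted p = 0.127, edgeR), although it did in fits of the 6 libraries alone (0.0146 and, with a replicate block, 0.018). In the wider list of BCL2 family members and death receptors 11 of 15 rose and 3 fell (median 0.61). Both killers and protectors were among those that rose, with MCL1 at 1.07 and BCL2L1 (BCL-XL) at 0.65 on the protective side, and BIRC5 (survivin) fell by 0.77 on the log2 scale.

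Immediate early genes had the largest median of the lists of 10 or more members. Of 17 tested, 16 rose and none fell over the upper step (median 1.62), whereas at 100 ug/mL 2 were above the vehicle and 4 below. EGR1, a zinc finger factor induced by ERK, averaged 11.9 CPM in the vehicle and 8.92 CPM at 20 ug/mL, read 8.13, 6.86 and 7.73 CPM at 100 ug/mL, and 102, 101 and 116 CPM at 500 ug/mL. It was thus below the vehicle at 100 ug/mL (log2 -0.64, called) and above every other library of the 4 groups at 500 ug/mL (log2 3.81, SE 0.07, adjusted p = 5.5e-41, edgeR). FOS, an AP-1 subunit, went from 0.611, 0.974 and 0.588 CPM to 10.3, 7.48 and 9.59 CPM (log2 3.66), and FOSB rose by 3.85.

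IER3 rose by 2.27, FOSL1 by 2.00, KLF6 by 1.56 and JUN by 1.48, and JUND (0.26) did not pass. JUND lies close to the threshold, since it passed as higher under 7 alternative settings, with adjusted p between 3.88e-06 and 0.0384 (edgeR). EGR2 rested on 36 counts against 1, a ratio of 38.1 with an interval of 6.41 to 1544. Genes that ERK induces and that feed back on it followed: 12 of 14 rose and none fell (median 0.78), after 7 of the 14 had been below the vehicle at 100 ug/mL (background for lower calls 7.34%). DUSP5, a nuclear ERK phosphatase, averaged 4.06 CPM in the vehicle, read 2.66, 3.21 and 2.82 CPM at 100 ug/mL and 62.5, 59.6 and 68.9 CPM at 500 ug/mL (log2 4.46, SE 0.08). DUSP1 rose by 2.88, SPRY4 by 1.6 and DUSP6 by 0.95, and SPRY2 (0.09) and ETV4 (0.03) did not pass.

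NF-kappaB feedback genes did not move as a group, with 5 of 12 higher and 3 lower (backgrounds 24.0% and 24.5%). The neutrophil chemokine CXCL8 went from 1.55, 1.95 and 1.29 CPM to 9.31, 9.75 and 12.2 CPM (log2 2.71), while NFKBIA (-0.15) and TNFAIP3 (-0.16), direct NF-kappaB targets, fell slightly.

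Secreted and matrix genes held several of the largest rises. In the list of matrix proteases and the plasminogen system 9 of 12 rose and 2 fell (median 1.18). MMP3, stromelysin 1, read 1.08, 1.66 and 1.33 CPM at 100 ug/mL, near the vehicle mean of 1.24, and 39.1, 37.6 and 44.1 CPM at 500 ug/mL (log2 4.89, SE 0.11). The tissue inhibitor TIMP1 rose by 1.68, SERPINE2 by 1.66 and the urokinase receptor PLAUR by 1.46, and MMP15 (-0.38) and TIMP3 (-0.20) fell.

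IGFBP1, an insulin-repressed liver protein that binds insulin-like growth factors, averaged 39.8 CPM in the vehicle and 58.4 CPM at 20 ug/mL, read 79.9, 92.4 and 83.1 CPM at 100 ug/mL and 1158, 1181 and 1262 CPM at 500 ug/mL (log2 3.82, SE 0.09). AQP3, a channel for water and glycerol, had the same order of doses, with 3.98 and 7.48 CPM, then 11.7, 12.2 and 12.5 CPM, then 153, 156 and 158 CPM (log2 3.69). Both had passed as higher at 100 ug/mL than in the vehicle. VGF, a neuropeptide precursor, rose by 4.20 and IGFBP3 by 4.37, the latter from 22 counts in all at 100 ug/mL.

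**Figure D2:**
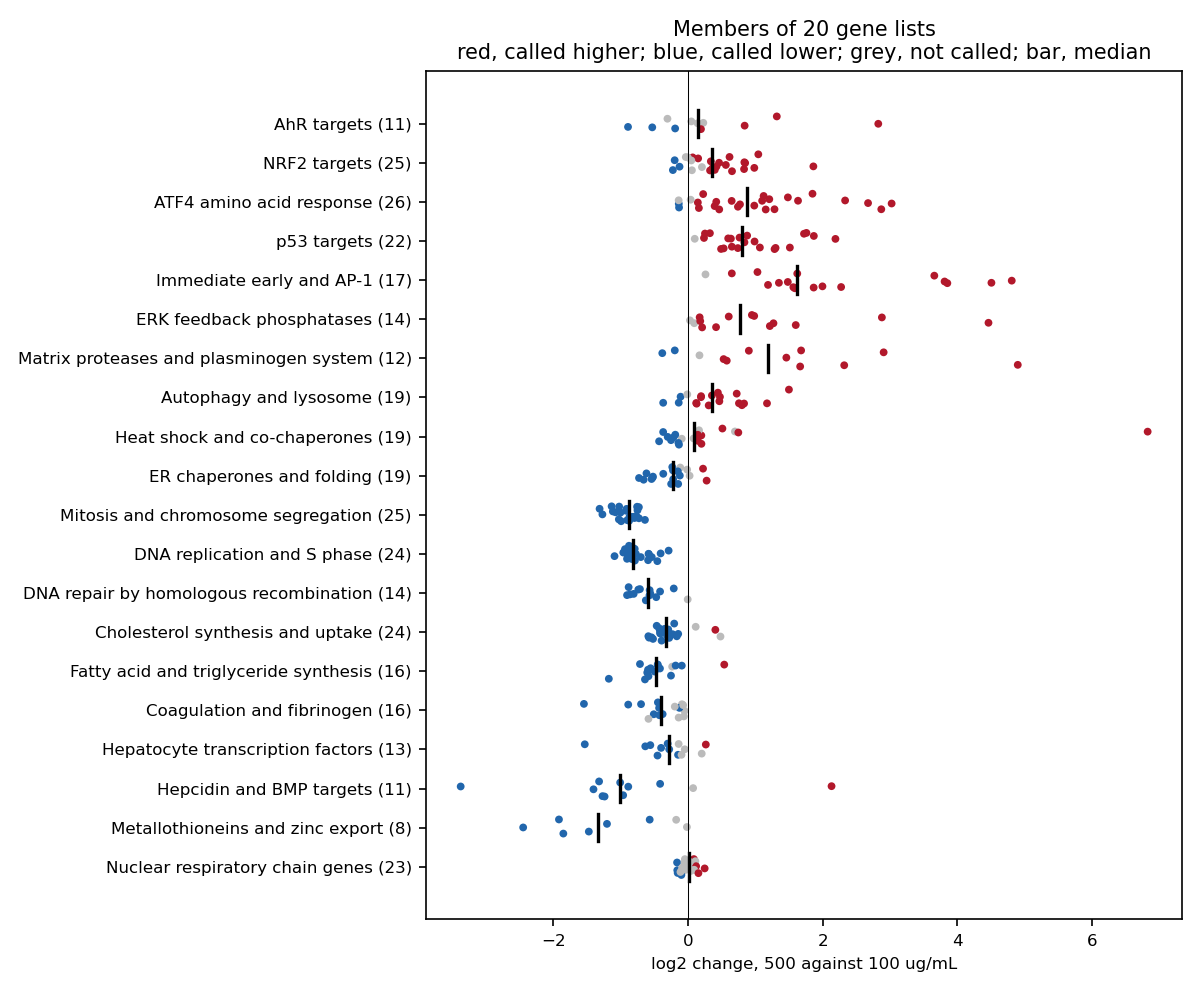
Log2 change between 100 and 500 ug/mL for each tested member of 20 gene lists, with the number tested in parentheses; red points passed as higher, blue as lower, grey did not pass, and black bars are medians. Mitosis and DNA replication members lie wholly below 0, immediate early and p53 members above it, and respiratory chain genes around it.

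Cell cycle genes fell as a block. All 25 mitosis genes and all 24 DNA replication genes fell over the upper step, with medians of -0.87 and -0.82, and 24 and 17 of them passed the test against a 1.5-fold change. At 100 ug/mL the same lists had 2 genes above and 1 below the vehicle, and 5 above and none below. MKI67 averaged 354 CPM in the vehicle and 376 CPM at 20 ug/mL, read 344, 350.3 and 378 CPM at 100 ug/mL, and 146, 149 and 149 CPM at 500 ug/mL (log2 -1.27, SE 0.09, adjusted p = 1.2e-16, edgeR). PLK1 read 249, 247 and 252 CPM and then 115, 114 and 112 CPM (log2 -1.13), and CDCA8 60.6, 59.7 and 58.5 CPM and then 29.98, 28.6 and 29.2 CPM (log2 -1.03). The doses did not overlap for any of the 3 genes. In bulk libraries a smaller share of dividing cells and less of these RNAs per cell cannot be told apart.

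The falls spanned every stage of S phase and mitosis in the lists. KIF20A, a kinesin of cytokinesis, fell by 1.31 on the log2 scale, cyclin A2 (CCNA2) by 1.12, aurora kinase B (AURKB) by 1.08, CDC20 by 0.99 and cyclin B1 (CCNB1) by 0.78. The replicative helicase subunit MCM2 read 194, 188 and 200.1 CPM and then 94, 91.1 and 87.8 CPM (log2 -1.09, SE 0.03), and MCM3 to MCM7 fell by between 0.79 and 0.96 on the log2 scale. RRM2, the ribonucleotide reductase subunit, fell by 0.89 on the log2 scale, and PCNA, the polymerase clamp, by 0.29, the smallest fall of the replication list. Homologous recombination genes fell in 13 of 14 cases (median -0.60), BRCA1 by 0.63 and RAD51AP1 by 0.91, and RAD51C (-0.01) did not pass.

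Regulators of G1 fell in 15 of 21 cases and rose in 3. The 3 that rose were CDKN1A, CDKN2B and MYC. CDKN2B (p15), an inhibitor of CDK4 and CDK6, averaged 6.06 CPM in the vehicle and 3.84 CPM at 20 ug/mL, read 3.09, 2.6 and 2.55 CPM at 100 ug/mL and 29.4, 30.1 and 32.1 CPM at 500 ug/mL. It fell over the lower step (log2 -0.48) and rose over the upper one (log2 3.47, SE 0.09). MYC rose by 0.18. CDKN2C (p18) fell by 1.3 on the log2 scale, E2F8 by 1.32, CDK2 by 0.69 and cyclin D1 (CCND1) by 0.39. Ribosome biogenesis genes, of which 12 of 20 were above the vehicle at 100 ug/mL, fell in 10 cases and rose in 2 over the upper step, with NOP56 at -0.49 and NCL (nucleolin) at -0.38.

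**Figure D3:**
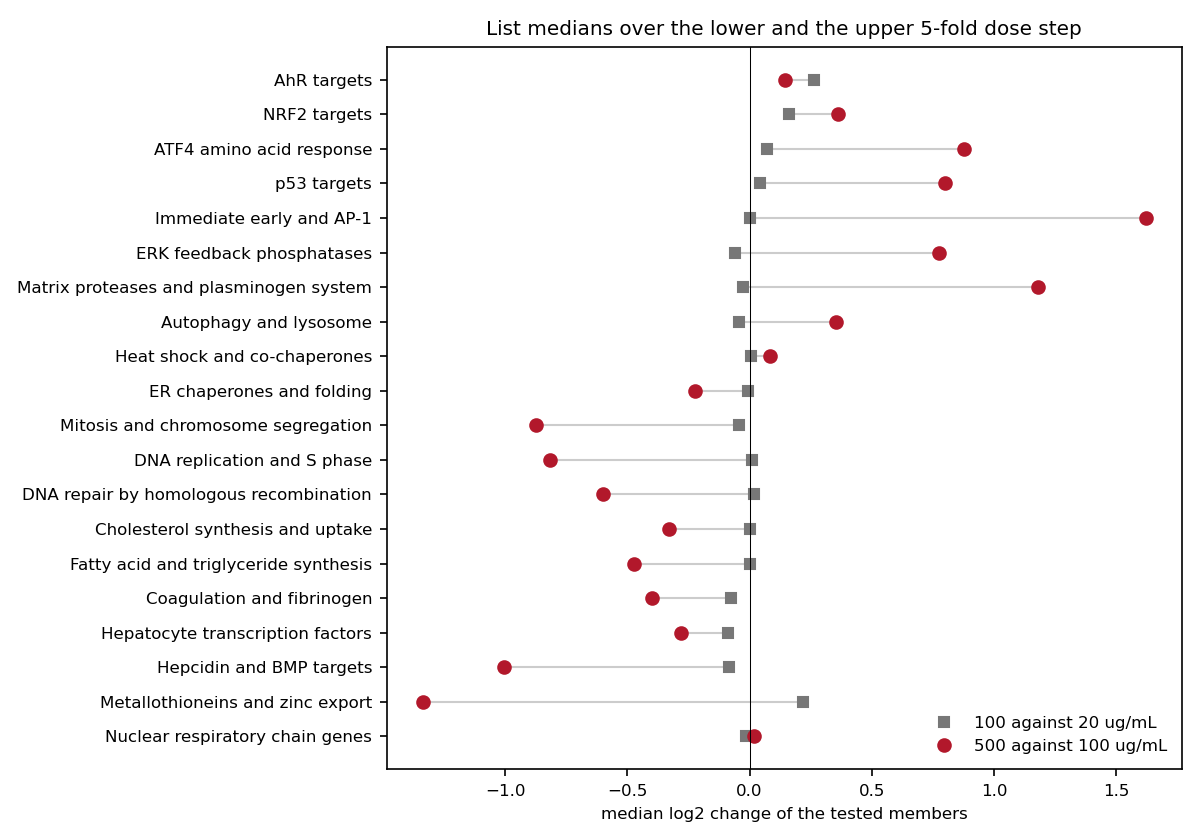
Median log2 change of the tested members of 20 gene lists between 20 and 100 ug/mL (grey squares) and between 100 and 500 ug/mL (red circles), both 5-fold steps that share the 100 ug/mL libraries. The AhR median was 0.26 over the lower step and 0.14 over the upper, while the mitosis and replication medians lay near 0 over the lower step and at -0.87 and -0.82 over the upper.

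Autophagy and lysosome genes rose in 15 of 19 cases and fell in 3 (median 0.35). MAP1LC3B (LC3B), the autophagosome membrane protein, read 86.2, 91.6 and 90.05 CPM at 100 ug/mL and 197, 196 and 211 CPM at 500 ug/mL (log2 1.17). GABARAPL1 rose by 1.5, and the lysosomal proteases CTSB and CTSL by 0.72 and 0.76. The gene of the lysosomal regulator TFEB fell by 0.37 on the log2 scale. Hypoxia and glycolysis genes did not stand out, with 6 of 20 higher and 4 lower (median 0.05), near the 24.0% and 24.5% over all genes. Nuclear respiratory chain genes, with 4 of 23 in each direction (median 0.02), lay below those shares. Of 13 mitochondrial transcripts MT-ND5 fell (-0.27), a call lost under 8 of the alternatives, and none rose, although 1 did under 5 of the alternatives.

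Genes of liver functions fell in part. Plasma carriers and secreted proteins fell in 12 of 19 cases and rose in 2 (median -0.32), and coagulation genes fell in 9 of 16 and rose in none (median -0.40). Transferrin (TF) read 2099.8, 2098 and 2076 CPM and then 1303, 1254 and 1294 CPM (log2 -0.70), and apolipoprotein H (APOH) fell by 0.97 on the log2 scale. Albumin (ALB) averaged 10623 CPM in the vehicle, read 8595, 8487 and 8344 CPM at 100 ug/mL and 8281, 7965 and 8194 CPM at 500 ug/mL. Its fall relative to the vehicle was called at 100 ug/mL (log2 -0.33) and the further difference of -0.06 was not (adjusted p = 0.417, edgeR). Of 13 hepatocyte transcription factors 8 fell and 1 rose. CEBPA, a factor of differentiated hepatocytes that restrains proliferation, went from 110.5, 119.9 and 108 CPM to 39.1, 38.4 and 39.5 CPM (log2 -1.53, SE 0.10), and HNF4A fell by 0.40 on the log2 scale. The bile acid receptor FXR (NR1H4) had fallen by 100 ug/mL, from 75.6 CPM in the vehicle to 54.9, 54.3 and 50.4 CPM, and fell again to 19.6, 20.8 and 20.1 CPM (log2 -1.40).

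Most genes of lipid synthesis fell. Cholesterol genes fell in 21 of 24 cases and rose in 1 (median -0.33). HMGCS1, which makes the precursor of mevalonate, fell by 0.59 on the log2 scale and SQLE, squalene epoxidase, by 0.58. Fatty acid and triglyceride synthesis genes fell in 14 of 16 cases (median -0.47). DGAT1, which makes triglyceride, read 100.1, 91.4 and 95.3 CPM and then 43.4, 41.9 and 41.7 CPM (log2 -1.18), and the desaturase SCD fell by 0.64 on the log2 scale. LPIN1, the phosphatidate phosphatase lipin 1, rose by 0.54. Genes that insulin represses, gluconeogenic ones included, rose in 7 of 11 cases and fell in none (median 0.34). Besides IGFBP1 they included G6PC1, glucose 6-phosphatase, at 0.93 and TXNIP at 0.68.

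Hepcidin and the targets of bone morphogenetic protein (BMP) signalling fell together: 9 of 11 fell and 1 rose, with a median of -1.01. Hepcidin (HAMP, chr19:35280716-35285143 in GRCh38, GENCODE release 29), the peptide that blocks iron export, is transcribed under BMP receptors and SMAD proteins in hepatocytes. It averaged 66 CPM in the vehicle and 72.2 CPM at 20 ug/mL, read 53.7, 53.8 and 63.7 CPM at 100 ug/mL, and 5.22, 6.12 and 5.16 CPM at 500 ug/mL. The libraries at 500 ug/mL lay far below the other 3 groups (log2 -3.38, SE 0.09, adjusted p = 8.5e-34, edgeR). HAMP had also fallen over the lower step, by 0.34 on the log2 scale.

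ID1, an inhibitor of basic helix-loop-helix factors and a direct BMP target, read 155, 175 and 168 CPM and then 60.8, 62.7 and 64.5 CPM (log2 -1.40, SE 0.08). ID3 fell by 1.32 on the log2 scale, the inhibitory SMAD6 by 1.27, SMAD9 by 1.24, SMAD7 by 0.96 and ID2 by 0.89. TMPRSS6, the protease that restrains hepcidin, fell by 1.01 on the log2 scale. The ligand gene BMP4 did not pass (0.08), although it did under 4 alternative settings (adjusted p between 0.0187 and 0.0463), and BMP6 rose from 13 to 55 counts in all (log2 2.13, SE 0.49).

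Metallothioneins are small zinc-binding proteins induced by metals through MTF1. In the list of metallothioneins and zinc export, which includes the exporter SLC30A1, 6 of 8 genes fell with none higher (median -1.34). MT1G read 87.6, 87.1 and 82.9 CPM at 100 ug/mL, near the vehicle mean of 97.2, and 24.8, 23.7 and 19.7 CPM at 500 ug/mL (log2 -1.92, SE 0.14). MT1F fell by 1.85 on the log2 scale, MT1X by 1.47 and MT1E by 1.20. The MT1 genes are close copies, so the split of reads between them is uncertain. MT2A read 330, 317 and 349 CPM and then 304, 306 and 272 CPM and did not pass (log2 -0.18, adjusted p = 0.265, edgeR). It did pass as lower without a filter on low counts (adjusted p = 0.000146) and in fits of the 6 libraries alone (0.00271 and, with a replicate block, 0.00424). The zinc exporter SLC30A1, another MTF1 target, did not pass (-0.02).

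Outside the lists, the largest rises among genes above 1 CPM on average included IGFN1 (4.4), the noncoding ITGB1-DT (4.19), TAGLN3 (3.97) and RGCC (3.78), a regulator of the cell cycle. Strand was not given for the counting, so reads of ITGB1-DT and of overlapping genes cannot be separated. The largest falls included ACSM2A (-2.37) and ACSM2B (-2.24), mitochondrial acyl-CoA synthetases that are near-identical copies, the growth factor receptor FGFR2 (-2.27), ATOH8 (-1.99), a BMP-responsive factor, the tight junction protein TJP3 (-1.98), ID4 (-1.90) and KANK4 (-1.76). The pseudogene ACSL3P1 fell by 2.22 on the log2 scale. EIF3CL had the lowest value of all of these (-4.28, SE 1.47), but it read 51.9, 30.5 and 4.78 CPM at 100 ug/mL, shares its sequence with EIF3C, and lost its call without 100 ug/mL replicate 1 (-3.54).

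The upper step of fresh ginger, also 500 against 100 ug/mL, and that of Coptidis Rhizoma, 210 against 42 ug/mL and so at lower doses though again 5-fold, share no library with the comparison above. The Scutellariae Radix step differed from that of fresh ginger at 3164 genes (19.0%), 1414 with the more positive change (8.50%) and 1750 with the more negative (10.5%), and from that of Coptidis Rhizoma at 5343 genes (32.1%), 2632 (15.8%) and 2711 (16.3%). Both balances turned under another setting, to 1676 and 1390 with scaling to total counts for fresh ginger and to 2532 and 2408 without a filter on low counts for Coptidis Rhizoma. Mitochondrial transcripts took between 17.41 and 18.19% of counts at 42 ug/mL of Coptidis Rhizoma and between 11.68 and 13.1% at 210 ug/mL, and the 50 most abundant genes between 29.33 and 30.09% and between 24.25 and 25.69%. The part of this shift in the differences from Coptidis Rhizoma was not tested. Fresh ginger's own step passed for 4404 genes (26.5%) and that of Coptidis Rhizoma for 9390 (56.4%). Both also lowered the cell cycle lists: all 25 mitosis genes fell in each, with medians of -0.45 and -0.86 (backgrounds for lower calls 12.7% and 27.8%). The fall with Scutellariae Radix was larger than with fresh ginger for 23 of these 25 genes, and against Coptidis Rhizoma 5 differed negatively and 1 positively. The DNA replication and homologous recombination lists fell more than with fresh ginger (20 of 24 and 10 of 14 genes). Against Coptidis Rhizoma most of their differences that passed were positive, since these genes fell less. Of 24 replication genes, 11 differed positively, 2 negatively and 11 did not pass (median 0.17). Of 14 recombination genes, 10 differed positively and none negatively (median 0.29).

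Of 22 p53 targets, 20 rose more with Scutellariae Radix than with fresh ginger (median difference 0.59), and against Coptidis Rhizoma 11 differed positively and 3 negatively. CDKN1A rose from 148 to 215 CPM with fresh ginger (log2 0.54) and from 177 to 548 CPM with Coptidis Rhizoma (log2 1.63), and the Scutellariae Radix step exceeded these by 1.65 (SE 0.07) and 0.56 (SE 0.07). EGR1 rose in all 3, by 1.44 with fresh ginger and 2.24 with Coptidis Rhizoma against 3.81, although its level reached at the top dose was 306 CPM with Coptidis Rhizoma. The other immediate early genes did not all follow it. In that list 14 of 17 rose more than with fresh ginger, while against Coptidis Rhizoma 4 differed positively and 7 negatively (median -0.15), FOSB among the latter (-1.40). Cholesterol genes distinguished it from Coptidis Rhizoma: 22 of 24 had the more positive difference (median 0.71), since they fell less than with Coptidis Rhizoma, whose own median was -1.10. Against fresh ginger 1 of the 24 differed, SQLE.

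Several hepcidin and BMP targets differed in direction. HAMP went from 46.8 to 21 CPM with fresh ginger (log2 -1.16) and from 51.4 to 63.2 CPM with Coptidis Rhizoma (log2 0.30), so that the Scutellariae Radix step was lower by 2.22 and 3.67 (adjusted p = 1.2e-19 and 1.3e-29, edgeR). SMAD7 rose by 0.99 and ID2 by 0.91 with Coptidis Rhizoma, where both fell with Scutellariae Radix, with differences of -1.95 and -1.80. ID1 was level with Coptidis Rhizoma at 213 and 212 CPM and fell by 0.40 on the log2 scale with fresh ginger.

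The list of metallothioneins and zinc export, SLC30A1 included, differed negatively from both, in 7 of 8 genes against fresh ginger and 8 of 8 against Coptidis Rhizoma. MT2A rose by 1.29 and 2.01 with these extracts. MT1E rose by 0.54 and 0.82, and it fell with Scutellariae Radix. The starting levels were not alike. MT1G averaged 85.9 CPM at the lower dose of Scutellariae Radix, 11 CPM at that of fresh ginger and 12.3 CPM at that of Coptidis Rhizoma. At the top dose it averaged 22.8, 11.7 and 8.8 CPM. MT1F had the same order, with 42.5, 5.49 and 5.46 CPM and then 11.8, 4.31 and 3.89 CPM. Both thus fell most with Scutellariae Radix but remained highest there. The part of the starting levels in the differences was not tested. AhR targets had the more negative change than Coptidis Rhizoma in 9 of 11 cases; CYP1A1 rose with that extract from 302 to 2254 CPM.

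**Figure D4:**
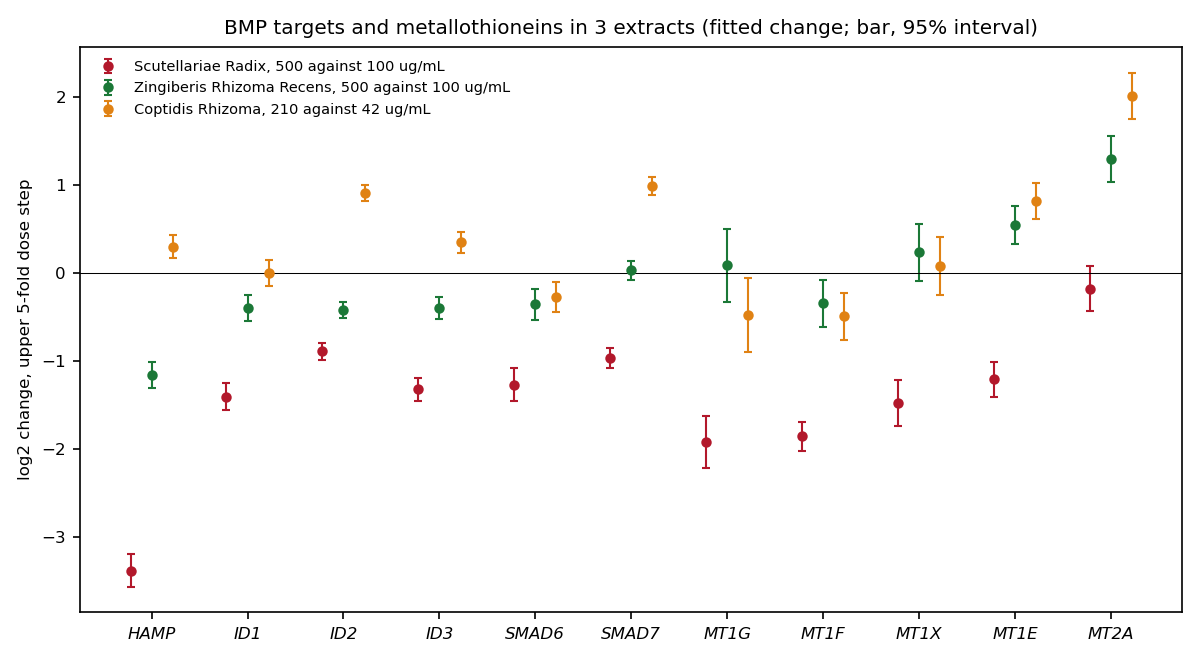
Fitted log2 change over the upper 5-fold dose step for 6 BMP targets and 5 metallothioneins with Scutellariae Radix (red), Zingiberis Rhizoma Recens (green) and Coptidis Rhizoma (orange); bars are 95% intervals. The change with Scutellariae Radix lies lowest for all 11 genes, and HAMP, ID2, ID3, SMAD7, MT1E and MT2A rose with Coptidis Rhizoma. Starting levels were unlike, and the levels of MT1G and MT1F at the top dose were highest with Scutellariae Radix.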

How the data were processed

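The values are expected counts (RSEM estimates), 1 per gene and library, as deposited by the authors. The submitters' processing notes name RSEM 1.3.3, STAR 2.7.3a, Trim Galore 0.6.5, FastQC 0.11.9 and GRCh38 (hg38). The sources used here give neither the annotation nor the strand setting; per the labels the libraries are directional, with paired reads of 100 bases. Values were rounded before fitting, as 24.44% of those above 0 held a fraction. The table has 208 further columns, which were not used. Gene coordinates came from GENCODE release 29 and promoter windows from RefSeq (GRCh38.p14). Symbols were matched by gene identifier from a separate list of gene names.

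Counts were filtered with filterByExpr, scaled with TMM and fitted with edgeR 4.0.16 (limma 3.58.1, R 4.3.3) in all 59 libraries with 1 mean per group for 20 groups. Quasi-likelihood tests were two-sided and adjusted by the Benjamini-Hochberg method over 16641 genes; glmTreat tested a fold of 1.5. The biological coefficient of variation was 4.41%, on 39 residual degrees of freedom. The method was tested on simulated data. DESeq2 1.42.0, other scalings, filters and sample sets, the replicate number as a block and leaving out each library were alternatives.

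Totals of the 59 libraries lay between 21582593 and 31392071 counts. Replicate pairs differed beyond counting noise (mean chi-square per gene between 2.48 and 5.31 in the 2 groups compared), so no library was taken for a duplicate. A library of another extract stood apart.

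Members and the 34 gene lists were chosen with earlier results of these data known. Named genes are list members, preferring the largest changes and those going the other way, the 12 largest rises and 12 largest falls with a mean of at least 1 CPM and no overlap between doses, and the 5 largest differences each way between steps or extracts. Some list members are not reported here.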

Additional observations from a re-analysis of the deposited data

Results flagged for a closer look

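Each value here is the log2 change of Scutellariae Radix between 100 and 500 ug/mL minus the change of another extract over its own upper 5-fold step, and each passed edgeR's quasi-likelihood test of that difference. The extracts also differ in the number that begins their titles, and at Coptidis Rhizoma the doses differ (210 against 42 ug/mL).

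Against fresh ginger 3164 genes differed. The largest positive differences were VGF (3.14), CSTA (2.94), IGFN1 (2.92), IGFBP1 (2.87) and TAGLN3 (2.72), and CSTA, an epidermal protease inhibitor, had 34 counts in all at 100 ug/mL. IGFBP1 started from unlike levels, 446 CPM at 100 ug/mL of fresh ginger and 85.1 CPM at 100 ug/mL of Scutellariae Radix, with 39.8 CPM in the vehicle. At 500 ug/mL it averaged 862 and 1200 CPM, and the part of the starting levels in the difference was not tested. The largest negative were EIF3CL (-5.84, on reads shared with EIF3C and lost, for example, without Scutellariae Radix 100 ug/mL replicate 1 at -5.1), the noncoding UCA1 (-2.32), HAMP (-2.22), MT1G (-2.01) and WNT11 (-2.0). Among BMP targets the differences were ID1 -1.0, ID3 -0.93, SMAD6 -0.91, SMAD7 -1.0 and ID2 -0.47, and among metallothioneins MT2A -1.47, MT1F -1.51 and MT1X -1.71. The stress genes rose more, with ATF3 at 1.95, CDKN1A at 1.65, EGR1 at 2.37, DUSP5 at 2.31 and MDM2 at 0.69.

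Against Coptidis Rhizoma 5343 genes differed. The largest positive differences were KLHDC7B (3.66), DEPP1 (3.65), the pseudogene NPM1P7 (2.76), TNFSF10 (2.59) and PDE3A (2.43). KLHDC7B rested on 107 counts at 500 ug/mL against 3 at 100 ug/mL, a ratio of 37.7 with a 95% interval of 12.6 to 185.7 for counting error only. DEPP1, a FOXO-responsive gene, fell with Coptidis Rhizoma from 39.2 to 9.68 CPM and rose with Scutellariae Radix (log2 1.63). TNFSF10 (TRAIL), PDE3A and NPM1P7 did not pass with Scutellariae Radix, and all 3 fell with Coptidis Rhizoma. The largest negative were C5AR2 (-5.06), EIF3CL (-4.74), CYP1B1 (-4.69), WNT11 (-4.53) and MUC5AC (-4.44). EIF3CL lost its call without Scutellariae Radix 100 ug/mL replicate 1 (-4.0). It also lost it without any 1 of the 500 ug/mL libraries and without several of the Coptidis Rhizoma libraries. C5AR2 and MUC5AC did not pass with Scutellariae Radix, while both rose with Coptidis Rhizoma, to 8.07 and 17.3 CPM.

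For the same BMP targets the differences from Coptidis Rhizoma were HAMP -3.67, ID1 -1.40, ID3 -1.67, SMAD6 -1.0, SMAD7 -1.95 and ID2 -1.80. The metallothioneins gave MT1G -1.43, MT2A -2.19, MT1F -1.36 and MT1X -1.55. The stress genes named above gave ATF3 0.39, CDKN1A 0.56, EGR1 1.57, DUSP5 0.64 and MDM2 0.56, but their lists were divided. Immediate early genes differed positively in 4 cases and negatively in 7 of 17 (FOSB by -1.40), and ERK feedback genes positively in 6 and negatively in 5 of 14 (median -0.05). At the top dose EGR1 and DUSP5 averaged 106 and 63.7 CPM with Scutellariae Radix and 306 and 214 CPM with Coptidis Rhizoma. At the lower dose they averaged 7.57 and 2.90 CPM and 64.8 and 15.1 CPM. The part of these starting levels was not tested.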

How the results depend on the processing

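No called change of a named gene reversed under any alternative run, but the balance of higher and lower calls did where it was near even. With scaling to total counts it was 4448 higher and 3624 lower between 100 and 500 ug/mL, 2506 and 2236 for the difference of the dose steps, and 1676 and 1390 against fresh ginger. Without a filter on low counts it was 216 and 209 between 20 and 100 ug/mL, 1271 and 937 between the vehicle and 100 ug/mL, and 2532 and 2408 against Coptidis Rhizoma. A mean of at least 1 CPM gave 3809 and 3799 between 100 and 500 ug/mL and 2612 and 2599 against Coptidis Rhizoma, and the comparison of 100 ug/mL with the vehicle gave 1247 and 1180 with RLE size factors and 988 and 940 without vehicle replicate 3. The count between 100 and 500 ug/mL (8074) was 7322 to 7488 without any 1 of the 6 libraries, 7628 with DESeq2 and 8339 in a fit of those libraries alone, and the count past 1.5-fold (1101) was 985 to 1037 with a library left out. Between 20 and 100 ug/mL the 353 calls fell to between 197 and 300 with a library left out, those higher (134) to between 91 and 131 and those lower (219) to between 102 and 172. With a library left out the comparison with the vehicle gave 1816 to 2162 genes at 100 ug/mL, the difference of the dose steps 3888 to 4592, and those from fresh ginger and Coptidis Rhizoma 2802 to 2939 and 4804 to 5057. Rises made up 49.49% of the calls between 100 and 500 ug/mL, and 55.1% with scaling to total counts. With the replicate number as a block 8086 genes passed, or 8311 in the 6 libraries. Same-numbered libraries did not deviate together (correlations of 0.02, 0.01 and -0.01), so the numbers are taken as names only. Over all alternatives the values of 230 gene results lost a call 45 times and gained one 36 times, mostly small changes such as CYP1A1, JUND, MT2A, BMP4, BAX, PHGDH, PSPH and NFKBIA, and 11 times EIF3CL. Counts of list members moved by over 1.5 times in 42 cases, 18 of them with a library left out, and each was a count of 5 or fewer. Lower calls went from 3 to 1 among NRF2 targets (without 100 ug/mL replicate 3), from 2 to 1 among ATF4 genes (without 500 ug/mL replicate 1 or 3 or 100 ug/mL replicate 3) or to 0 (total counts), and from 3 to 1 among NF-kappaB genes (total counts, or without 500 ug/mL replicate 2 or 100 ug/mL replicate 3). Higher calls went from 1 to 2 among BMP targets (total counts, the 6 libraries alone, or without 500 ug/mL replicate 3) and among AhR machinery genes (7 settings). Higher calls among nuclear respiratory chain genes went from 4 to 2 without a filter or without 100 ug/mL replicate 1 or 500 ug/mL replicate 3, and to 1 without 100 ug/mL replicate 3. Mitochondrial transcripts had 0 to 3 lower calls and 0 or 1 higher, and lower calls among markers of other cell types went from 5 to 3. HSPA6 lost the call of its step difference (5.9) without 20 ug/mL replicate 1 (2.73). Having 3 libraries a group limits the smallest changes that can be called, and ratios on few counts, as for EGR2, CHAC1 and KLHDC7B, are imprecise.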

Other observations

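Some genes were lower at 100 ug/mL than in the vehicle and higher at 500 ug/mL than at 100 ug/mL. PDGFRB, a growth factor receptor read here as a marker of stellate cells, was lower than the vehicle by 1.56 on the log2 scale at 100 ug/mL, where it averaged 3.18 CPM, and rose to 4.91 CPM. The hexokinase HK1 fell by 0.81 on the log2 scale at 100 ug/mL and rose by 1.86 over the upper step, to 2.20 CPM. NR0B2 (SHP), a target of the bile acid receptor FXR, fell by 0.55 on the log2 scale and then rose by 0.71, whereas the receptor gene NR1H4 fell at both. TP53INP1 and the autophagy gene WIPI1 had the same order, with -0.31 then 1.28 and -0.57 then 0.47. These genes were picked after their values were seen. Both contrasts use the 100 ug/mL libraries, so chance spread in those libraries moves them in opposite directions.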
